A study of Arabidopsis thaliana with 18 samples.

Results

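The mitochondrial genome of Arabidopsis thaliana was represented by 146 annotated loci, all those whose identifier begins with ATMG, out of 33602 loci counted in the study. They were followed through 18 RNA-seq libraries from whole seedlings in 6 groups of 3 independent experiments each. The groups were ahl10-1 at low water potential, ahl10-1 control, rrp6l1-2 at low water potential, rrp6l1-2 control, wild type Col-0 (WT) at low water potential and WT control. The ahl10-1 mutant is the single T-DNA insertion line Salk_073165, and rrp6l1-2 is the single line Salk_027601; AHL10 is an AT-hook DNA-binding protein and RRP6L1 is related to the nuclear exosome subunit RRP6. All seedlings grew without sugar under continuous light. At day 7 the stressed seedlings were moved to plates infused with polyethylene glycol 8000 at -0.7 MPa, the controls stayed at -0.25 MPa, and both were harvested 96 h later. The RNA came from whole seedlings and was purified on oligo-dT beads, so RNA with a run of A was enriched.

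Plant mitochondria keep a small genome that encodes core subunits of the respiratory complexes I (NADH dehydrogenase, nad genes), III (cob) and IV (cytochrome c oxidase, cox genes), of the ATP synthase (atp genes), cytochrome c maturation factors (ccm genes), some ribosomal proteins and the organelle's own rRNAs and tRNAs. The remaining subunits of each complex are made from nuclear genes and imported. Most functional transcripts in plant mitochondria carry no stable poly(A) tail, and in this organelle a tail marks an RNA for degradation, so a poly(A) library gives a view of tailed mitochondrial RNA and not of the whole pool. Arabidopsis also carries a near-complete copy of the mitochondrial genome inserted beside the centromere of chromosome 2, and a read from a shared stretch cannot be placed from its sequence alone.

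Of all windows of 100 bases in the mitochondrial genome of the RefSeq TAIR10.1 assembly, 67.6% had an exact match in the nuclear chromosomes and nearly all of these had one on chromosome 2. The matched block there ran over chr2:3239038-3509765 and was 270728 bp long. Nuclear sequence missing from this assembly could not be matched, so a gene without a match is not shown to lack a nuclear copy. The extent of the match differed between genes. The sequence pairs show an identical gene, a gene with 1 difference and a gene with a partial best match that differs at many bases. They are printed because these differences decide whether a read can be placed. Each run is 90 bases, 5′ to 3′ in the direction of the match, and capitals mark the bases that differ within a pair.
rps12 mitochondrial chrM:288446-288535, plus strand: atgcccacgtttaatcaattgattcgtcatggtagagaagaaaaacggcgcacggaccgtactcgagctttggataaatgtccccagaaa
rps12 nuclear chr2:3270410-3270499, plus strand: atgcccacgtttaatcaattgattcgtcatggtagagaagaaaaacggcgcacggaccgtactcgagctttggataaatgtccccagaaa
nad7 mitochondrial chrM:239333-239422, minus strand: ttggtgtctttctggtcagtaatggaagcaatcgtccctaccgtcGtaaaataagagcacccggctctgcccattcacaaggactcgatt
nad7 nuclear chr2:3394362-3394451, plus strand: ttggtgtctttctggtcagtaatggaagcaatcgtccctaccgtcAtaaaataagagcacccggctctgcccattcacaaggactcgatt
cox2 mitochondrial chrM:6480-6569, plus strand: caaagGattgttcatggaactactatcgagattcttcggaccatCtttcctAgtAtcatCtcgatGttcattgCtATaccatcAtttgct
cox2 nuclear chr2:3347167-3347256, plus strand: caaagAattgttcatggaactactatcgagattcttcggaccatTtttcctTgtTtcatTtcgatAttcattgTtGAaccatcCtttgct
The rps12 coding sequence (ribosomal protein S12, 378 bases) was the same base for base at both places. The nad7 stretch (a matrix-arm subunit of complex I) differed at 1 of 262 aligned bases, and the cox2 stretch (subunit II of cytochrome c oxidase) differed at 11 of 306. That match covers 306 of the 783 bases of cox2. It lies within AT2G07695, which the reference notes as the copy of another mitochondrial locus, ATMG01280.

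The deposited tables give, for each locus, reads that were shared out between places where a read maps more than once, RPKM (reads scaled to locus length and library size), and the share of the locus's reads that map to several places, called the multi-mapping share here. The tables pair no ATMG identifier with a gene name. A name was given to 49 of the 146 loci: 24 from the reference's note on the annotated nuclear copy, and the others because the locus length equalled that of a single mitochondrial gene or reading frame in the RefSeq annotation. Where a note and the length of a gene both applied, the names were compatible in 8 of 8 loci. Where the length was that of a reading frame, the names could differ. ATMG01090 was noted as ATP synthase 9 and had the length of ORF262, and ATMG00590 was noted as a cytochrome b/b6 protein and had the length of ORF313. ATMG00160 (cox2), ATMG00510 (nad7), ATMG00580 (nad4), ATMG00640 (atp4), ATMG01360 (cox1) and ATMG01390 (rrn18) are among those named by length, so their names rest on a match of length and not of sequence. ATMG00020, ATMG00516 and ATMG01370 have no name from these sources.

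Each library held 57996104 to 68555138 reads on counted loci, so 3 reads, the most that a count of 0 allows, stood for 0.0438 to 0.0517 CPM (counts scaled to library size, with TMM factors in all tests), for counting error only. The mutant labels were checked against the targeted genes. AHL10 had 20.9 to 32.6 CPM in the 6 ahl10-1 libraries, against 36.9 to 64.6 CPM in the 12 other libraries, and RRP6L1 had 3.67 to 8.97 CPM in the 6 rrp6l1-2 libraries, against 24.6 to 29.1 CPM in the 12 others. Libraries of replicate 3 stood apart in organelle reads: the mitochondrial share was highest in replicate 3 in 5 of 6 groups and the chloroplast share in 6 of 6, with chloroplast shares of 0.102 to 0.589% over the 18 libraries. The share, the counts of calls and the calls that end without these 6 libraries are given below.

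Mitochondrial RNA was scarce and very unevenly spread over the genome. Of the 146 loci, 127 had at least 1 read in some library and 55 had reads in all 18, while 94 had a median below 10 reads and 19 had a median of 100 or more. The 19 loci with no read anywhere ran from ATMG00210 to ATMG01270. Only 59 loci passed the filter on low counts and entered the tests. Short loci were hardly seen: 23 of the 146 were under 200 bp, the size range of tRNAs, and 3 of those were tested.

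Of 402981 mitochondrial reads in the 18 libraries together, the single locus ATMG00020 took 43.2%, ATMG00020 and ATMG01390 together took 76.6%, the top 10 took 86.4% and the top 20 took 92.9%. ATMG01390 has the length of rrn18, the small-subunit rRNA. Per length, ATMG01390 averaged 57.9 RPKM and ATMG00020 averaged 56.3 RPKM over all libraries, and neither had a read that mapped elsewhere. The next level was far lower: ATMG01080 (atp9, the subunit that forms the rotor ring of the ATP synthase) averaged 15.9 RPKM, ATMG00980 (rps12) 11.5 RPKM, ATMG01380 (rrn5, the 5S rRNA) 9.42 RPKM and ATMG00990 (nad3, a membrane-arm subunit of complex I) 8.95 RPKM. ATMG01370 averaged 6.91 RPKM, cox2 5.94 RPKM, the 22-bp locus ATMG00665 5.43 RPKM, ATMG00480 (atp8, another ATP synthase subunit) 5.20 RPKM, ATMG00516 4.81 RPKM and ATMG00690 4.44 RPKM. By reads the order after the first loci was atp9 with 9683 reads in all, cox2 with 5608, rps12 with 5336, cox1 with 4102, nad3 with 3952, ATMG00690 with 3887, ATMG01090 with 3498, ATMG00590 with 3422, ATMG00090 (rps3) with 3182 and ATMG01170 with 3122. Over the 18 libraries ATMG01390 ran from 25.4 to 115 RPKM and ATMG00020 from 19.9 to 110 RPKM, while atp9 ran from 11.7 to 22.1 RPKM, rps12 from 0 to 23.6 RPKM and nad3 from 0.183 to 22.3 RPKM. Each locus in this order overlapped its neighbour in range over libraries, so these ranges alone do not separate neighbours. They do not compare loci within the same library.

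The summed mitochondrial reads made up a larger part of every stressed library than of any control library of the same genotype. In ahl10-1 the mitochondrial share was 0.0357, 0.0337 and 0.0534% of library reads under stress, against 0.0335, 0.0174 and 0.0314% in control. In rrp6l1-2 it was 0.0377, 0.0356 and 0.0625% under stress, against 0.0170, 0.0206 and 0.0318% in control. In WT it was 0.0424, 0.0418 and 0.0649% under stress, against 0.0283, 0.0218 and 0.0378% in control. Within each genotype the groups did not overlap, although the gap in ahl10-1 was small. As means ± SD (n = 3), the shares were 0.0409 ± 0.0108% in stressed and 0.0274 ± 0.00877% in control ahl10-1, a 1.52-fold difference. They were 0.0452 ± 0.0150% in stressed and 0.0232 ± 0.00771% in control rrp6l1-2 (1.96-fold), and 0.0497 ± 0.0131% in stressed and 0.0293 ± 0.00802% in control WT (1.70-fold). Without ahl10-1 control replicate 2 the ahl10-1 log2 difference was 0.30 and without ahl10-1 stress replicate 3 it was 0.40, against 0.60 with all libraries. With 1 library left out, it stayed within 0.71 to 1.22 in rrp6l1-2 and 0.56 to 0.97 in WT. These sums are given as description, with no test. In RNA from whole seedlings, a change in the number of cells or organelles of a kind and a change in the RNA of each cannot be told apart.

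**Figure D1:**
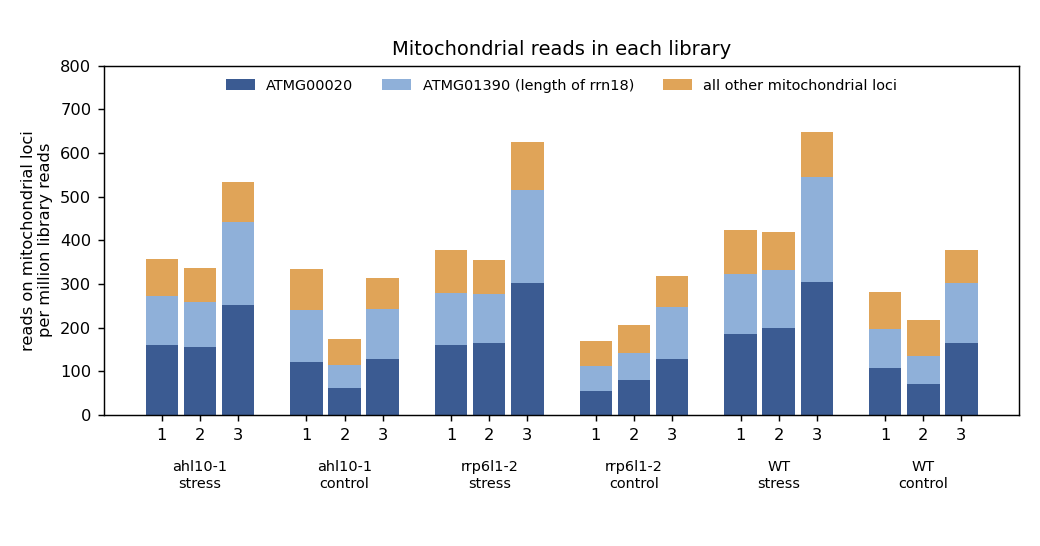
Reads on mitochondrial loci, scaled to library size (y axis, linear), in each of the 18 libraries, numbered by replicate within group. Stacked colours give ATMG00020, ATMG01390 and all other mitochondrial loci. The 2 leading loci make up most of every bar, and replicate 3 is the tallest bar in 5 of 6 groups.

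Most of that difference lay in the leading pair of loci. ATMG00020 had 151, 152 and 262 CPM in stressed ahl10-1, against 120, 62.7 and 143 CPM in control. It had 155, 163 and 301 CPM in stressed rrp6l1-2, against 58.0, 80.6 and 142 CPM in control, and 173, 189 and 289 CPM in stressed WT, against 110, 72.2 and 158 CPM in control. Each stressed group stood above its control group, but the libraries within a group differed so much that no genotype passed the test: the log2 differences were 0.80 ± 0.42 (SE), 1.14 ± 0.43 and 0.94 ± 0.43, with adjusted p = 0.18, 0.061 and 0.12 by edgeR's quasi-likelihood test, in the order ahl10-1, rrp6l1-2 and WT. ATMG01390 differed by 0.44 ± 0.45, 0.76 ± 0.45 and 0.76 ± 0.45 on the log2 scale in the same order, and none of these passed (adjusted p = 0.49, 0.23 and 0.24, edgeR). Without these 2 loci the stressed and control shares differed by 0.20, 0.58 and 0.26 on the log2 scale, against 0.60, 0.97 and 0.77 with them. Without the 6 replicate 3 libraries the share differed by 0.52, 0.97 and 0.76.

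The chloroplast share showed no such order over the 3 genotypes. It averaged 0.238 ± 0.197% in stressed and 0.371 ± 0.217% in control ahl10-1, 0.226 ± 0.126% in stressed and 0.284 ± 0.172% in control rrp6l1-2, and 0.322 ± 0.231% in stressed and 0.279 ± 0.122% in control WT (SD, n = 3 each). Across the 18 libraries the mitochondrial and chloroplast shares had a Spearman rho of 0.33 and a Pearson r of 0.52, given as description since both are shares of the same libraries and both were high in replicate 3.

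At single loci, a small group of genes for respiratory subunits rose under low water potential, with cox2, atp4 and nad7 among them in every genotype, and 1 unnamed locus fell. By edgeR's quasi-likelihood test with Benjamini-Hochberg adjustment over all 22795 genes tested, at an adjusted p under 0.05, 6 of 59 loci passed in ahl10-1 (5 higher, 1 lower), 10 of 59 in rrp6l1-2 (9 higher, 1 lower) and 5 of 59 in WT (4 higher, 1 lower). Over all genes tested, 30.1% passed in ahl10-1, 29.5% in rrp6l1-2 and 26.1% in WT, and the loci's own shares, 10.2, 16.9 and 8.47%, were below these; the typical standard error was 0.38 to 0.39 for these loci and 0.12 for all genes (medians, log2). By direction, 15.7% of all genes were called higher and 14.4% lower in ahl10-1, 14.9 and 14.7% in rrp6l1-2, and 12.6 and 13.4% in WT. The same replicate numbers deviated together in both mutants. With the replicate number as a block 10 loci passed in ahl10-1, 6 higher and 4 lower, and the share of all genes in that fit is not given. The median log2 difference of the 59 loci was 0.03 in ahl10-1, 0.53 in rrp6l1-2 and 0.19 in WT, beside medians of 0.01, 0.02 and 0.00 over all genes. Groups did not overlap for 15, 16 and 17 of the 59 loci, beside 40.1, 44.7 and 43.2% of all genes. In all 3 genotypes 5 loci passed, and 10 passed in at least 1.

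Among calls from a locus's own reads, the largest change was that of the complex IV gene cox2 in rrp6l1-2. cox2 had 4.63, 7.53 and 7.32 CPM in stressed ahl10-1, against 3.56, 3.25 and 4.25 CPM in control. It had 6.37, 6.85 and 9.17 CPM in stressed rrp6l1-2, against 2.45, 2.25 and 3.66 CPM in control, and 5.79, 6.36 and 6.44 CPM in stressed WT, against 3.24, 3.12 and 3.03 CPM in control. All 9 stressed libraries lay above all 9 controls. The log2 changes were 0.82 ± 0.20 in ahl10-1 (adjusted p = 0.00614), 1.42 ± 0.21 in rrp6l1-2 (adjusted p = 1.06e-04) and 0.98 ± 0.20 in WT (adjusted p = 0.00203, edgeR, SE of the fit). As the printed sequences show, cox2 differs at many bases from its best match on chromosome 2, which covers 306 of its 783 bases. Of the cox2 reads 26.0% mapped to several places. The other core subunits were less clear. cox1 rose in rrp6l1-2 by 0.66 ± 0.19 (adjusted p = 0.017, edgeR) and differed by 0.41 ± 0.19 in ahl10-1 and 0.49 ± 0.19 in WT, where it did not pass (adjusted p = 0.12 and 0.067, edgeR). cox1 had no multi-mapping read, with 3.23 to 5.55 CPM in the 9 stressed libraries, against 2.40 to 3.43 CPM in the 9 controls. ATMG00730 (cox3) rose in rrp6l1-2 by 0.90 ± 0.32 (adjusted p = 0.0431, edgeR) and differed by 0.62 ± 0.32 in ahl10-1 and 0.76 ± 0.31 in WT without passing there. So 1 of 3 complex IV loci passed in ahl10-1, 3 of 3 in rrp6l1-2 and 1 of 3 in WT, where 30.1, 29.5 and 26.1% of all genes passed.

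In the ATP synthase 1 of 5 tested loci passed in every genotype, and it was the same one. Of all genes, 30.1% passed in ahl10-1, 29.5% in rrp6l1-2 and 26.1% in WT. atp4, a subunit of the peripheral stalk, had 2.18, 2.89 and 3.38 CPM in stressed ahl10-1, against 1.77, 1.11 and 1.52 CPM in control. It had 2.51, 2.26 and 3.59 CPM in stressed rrp6l1-2, against 1.15, 1.34 and 1.79 CPM in control, and 2.35, 3.09 and 3.47 CPM in stressed WT, against 1.53, 1.25 and 1.65 CPM in control. Again all 9 stressed libraries lay above all 9 controls, and atp4 had no multi-mapping read and no exact nuclear match in windows of 100 bases. A nuclear copy missing from the reference would not show in either measure. It rose by 0.94 ± 0.24 in ahl10-1, 0.97 ± 0.25 in rrp6l1-2 and 1.01 ± 0.24 in WT on the log2 scale (adjusted p = 0.00835, 0.00794 and 0.00621, edgeR). atp9, the most abundant of the protein-coding loci per length, differed by -0.14 ± 0.25, 0.06 ± 0.25 and -0.14 ± 0.25 in the same order. Its levels ran from 6.08 to 11.9 CPM under stress and from 6.47 to 11.7 CPM in control, the same range. ATMG00410 (atp6-1, part of the proton channel) differed by -0.15 ± 0.23, 0.20 ± 0.23 and 0.12 ± 0.23.

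**Figure D2:**
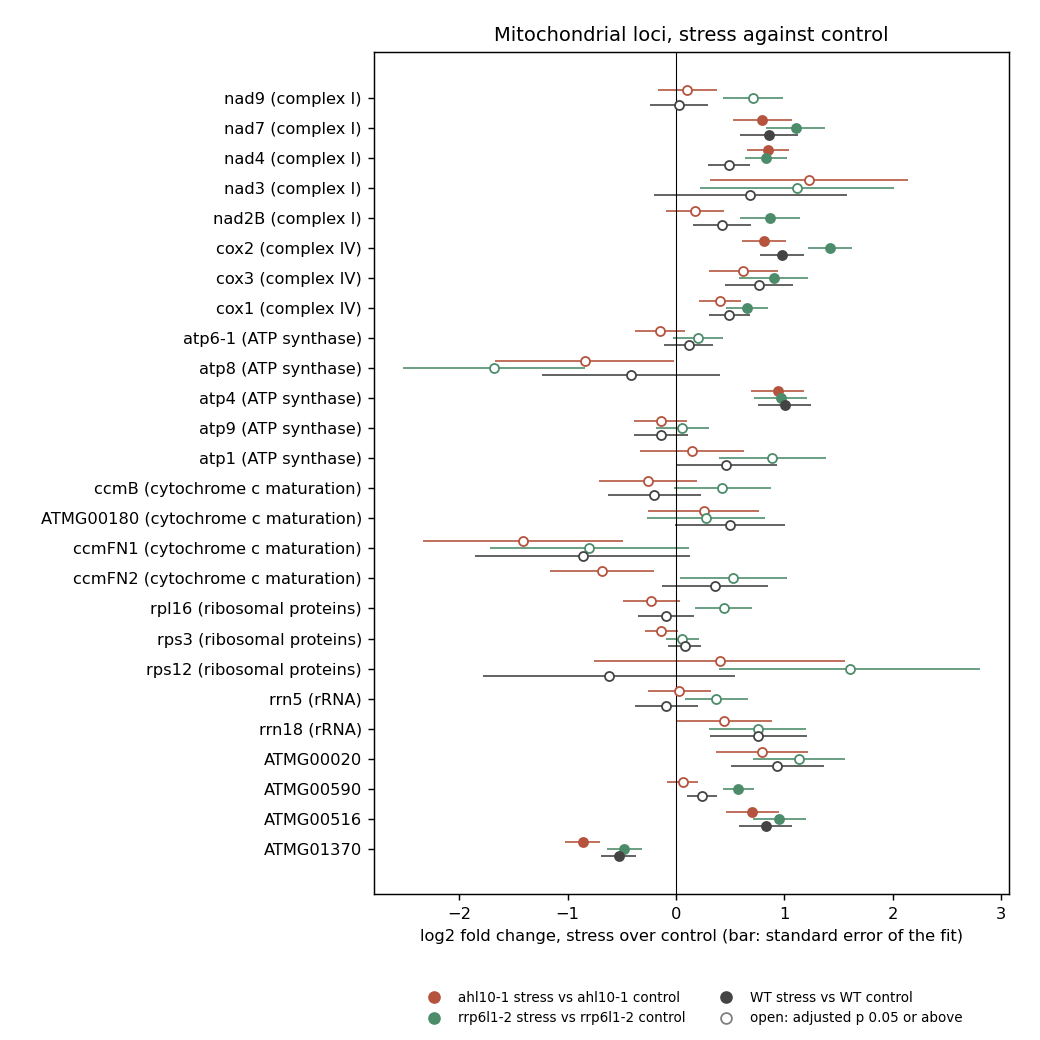
Log2 fold change of stress over control (x axis) for mitochondrial loci with a role and for 4 unnamed or partly named loci, with ahl10-1, rrp6l1-2 and WT as separate points. Bars are the standard error of the edgeR fit and filled points have an adjusted p under 0.05. cox2, atp4, nad7 and ATMG00516 are filled on the right and ATMG01370 on the left in every genotype, and rps12, nad3, atp8 and ccmFN1 have the widest bars.

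Complex I gave 2 of 5 tested loci in ahl10-1, 3 of 5 in rrp6l1-2 and 1 of 5 in WT, all higher. Over all genes 30.1, 29.5 and 26.1% passed in the same order. nad7 had 2.44, 1.92 and 2.28 CPM in stressed ahl10-1, against 1.36, 1.14 and 1.31 CPM in control. It had 2.15, 1.63 and 3.64 CPM in stressed rrp6l1-2, against 0.892, 1.45 and 1.07 CPM in control, and 2.23, 2.20 and 2.85 CPM in stressed WT, against 1.28, 1.04 and 1.70 CPM in control. Its groups did not overlap in any genotype, and it rose by 0.80 ± 0.27, 1.11 ± 0.27 and 0.86 ± 0.27 on the log2 scale (adjusted p = 0.0345, 0.00645 and 0.0264, edgeR, in the order ahl10-1, rrp6l1-2 and WT). Of its reads 29.1% mapped to several places, and on unique reads it differed by 0.63, 1.06 and 0.66, which passed in rrp6l1-2. nad4, a membrane-arm subunit, rose by 0.85 ± 0.19 in ahl10-1 and 0.83 ± 0.19 in rrp6l1-2 (adjusted p = 0.00363 and 0.00473, edgeR) and differed by 0.49 ± 0.19 in WT (adjusted p = 0.0695, edgeR). ATMG01320 (nad2B) rose in rrp6l1-2 by 0.87 ± 0.28 (adjusted p = 0.0267, edgeR). ATMG00070 (nad9, a matrix-arm subunit) had no multi-mapping read and differed by 0.11 ± 0.27, 0.71 ± 0.28 and 0.03 ± 0.27 without passing. The interaction of genotype and stress, which tests whether a mutant's change differs from that of WT, passed at none of these loci.

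The other gene groups gave no call from their own reads. None of 4 tested cytochrome c maturation loci, 3 tested ribosomal protein loci and 2 rRNA loci passed in any genotype. rps3, whose reads were mostly unique (11.9% multi-mapping), differed by -0.14 ± 0.15 in ahl10-1, 0.06 ± 0.15 in rrp6l1-2 and 0.08 ± 0.15 in WT, with 2.27 to 3.33 CPM in the stressed libraries, against 2.14 to 3.37 CPM in controls. rrn5 differed by 0.03 ± 0.29, 0.37 ± 0.29 and -0.09 ± 0.29. The calls that remain came from loci without a gene name or with a partial one.

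ATMG00516 rose in all 3 genotypes, by 0.71 ± 0.25 in ahl10-1, 0.96 ± 0.25 in rrp6l1-2 and 0.83 ± 0.24 in WT (adjusted p = 0.0389, 0.00857 and 0.0187, edgeR). Of its reads 56.3% were multi-mapping, and on unique reads it differed by 0.64, 1.57 and 0.86 and passed in rrp6l1-2. ATMG01370 was the only one of the 59 loci that fell by its own reads. It had 1.73, 1.74 and 1.99 CPM in stressed ahl10-1, against 3.23, 2.83 and 3.87 CPM in control, 1.97, 1.61 and 2.09 CPM in stressed rrp6l1-2, against 2.72, 2.29 and 2.93 CPM in control, and 2.39, 2.39 and 1.82 CPM in stressed WT, against 3.25, 3.03 and 3.25 CPM in control. No group overlapped its control, and the log2 changes were -0.86 ± 0.16, -0.48 ± 0.16 and -0.53 ± 0.16 (adjusted p = 8.48e-04, 0.0373 and 0.0232, edgeR). With 33.5% multi-mapping reads, shared at least in part with rrn5, ATMG01370 differed by -0.70, -0.38 and -0.40 on unique reads and passed in ahl10-1. ATMG00590, whose nuclear copy is noted as a cytochrome b/b6 protein, rose in rrp6l1-2 by 0.58 ± 0.14 (adjusted p = 0.00665, edgeR), but every read of it mapped to several places and the files gave it the same count as AT2G07718 in all 18 libraries.

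The calls differed in how well they held. When each library of the compared groups was left out in turn, cox2 stayed past the threshold in 6 of 6 fits in each genotype. atp4 did so in 6 of 6 fits in ahl10-1 and WT and in 5 of 6 in rrp6l1-2, where leaving out stress replicate 3 ended it, and ATMG01370 did so in 6 of 6 fits in ahl10-1, 2 of 6 in rrp6l1-2 and 3 of 6 in WT. nad7 kept its call in 1, 5 and 3 of 6 fits and ATMG00516 in 2, 6 and 3 of 6, in the order ahl10-1, rrp6l1-2 and WT. Of the calls that did not hold in all genotypes, nad4 stayed in 6 of 6 fits in both mutants, ATMG00590 in 6 of 6 in rrp6l1-2, and cox1, nad2B and cox3 in 3, 2 and 1 of 6 there. Leaving out stress replicate 3 reduced the count to 5 loci in rrp6l1-2 and to 2 in WT, leaving out control replicate 1 reduced it to 6 in rrp6l1-2 and to 3 in WT, and leaving out control replicate 2 reduced it to 3 in WT. Shares of all genes called in fits with libraries left out are not given, so counts from such fits cannot be set against all genes. Without the 6 replicate 3 libraries 3 loci passed in ahl10-1, 9 in rrp6l1-2 and 4 in WT. Calls that ended without them were those of atp4, nad7 and ATMG00516 in ahl10-1 (log2 differences then 0.81, 0.80 and 0.50), nad7, cox3 and ATMG01370 in rrp6l1-2 (0.68, 0.79 and -0.48), and ATMG00516 and ATMG01370 in WT (0.76 and -0.39). With mitochondrial reads alone as the library size, which sets each locus against ATMG00020 and ATMG01390, no locus was called higher in any genotype.

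No mitochondrial locus passed between a mutant and WT. By edgeR's quasi-likelihood test 0 of 59 loci passed for ahl10-1 control against WT control, ahl10-1 stress against WT stress, rrp6l1-2 control against WT control and rrp6l1-2 stress against WT stress, where 0.0263, 0.0351, 0.211 and 0.0834% of all genes passed. At an unadjusted p under 0.05 (edgeR) the counts were 1, 0, 7 and 1 of 59. The share of all genes at that unadjusted threshold is not given, so these counts cannot be read against the adjusted shares. DESeq2 and limma called 0 in each. Groups did not overlap for 5, 4, 11 and 2 of the 59 loci, beside 7.73, 11.9, 22.0 and 14.4% of all genes. The lowest adjusted p among these loci was 0.164, for ATMG00590 in rrp6l1-2 control against WT control, with 2.27 ± 0.23 CPM in rrp6l1-2 and 3.03 ± 0.35 CPM in WT (SD, n = 3 each). In that comparison 53 of 59 loci lay below WT and the median log2 difference was -0.27, beside -0.02 for all genes; these loci share libraries and many share reads, so this count is description. The mitochondrial share was lower by 0.12 and 0.28 on the log2 scale in ahl10-1 (control, stress) and by 0.35 and 0.15 in rrp6l1-2 (control, stress), less than the spread between libraries of a group. That spread takes no account of replicate numbers. Set against WT by replicate number, the share was lower in 2 and 3 of 3 pairs in ahl10-1 and in 3 and 3 of 3 in rrp6l1-2 (control, stress), which was not tested. The interaction terms gave 0 of 59 loci and 0.0% of all genes for both mutants. At an unadjusted p under 0.05 there were 1 and 0 loci, again without a share of all genes at that threshold. Both mutants are set against the same WT libraries.

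The authors' deposited table for WT stress against WT control, made with their own processing, called 4 mitochondrial loci higher and none lower among 56 with an adjusted p. These were ATMG00160 (cox2), ATMG00516, ATMG00640 (atp4) and ATMG01360 (cox1). Over all genes, 6352 of 23692 with an adjusted p were called there. The sign of the authors' deposited table matched stress over control, and in it cox2 had a log2 fold change of 1.10 and atp4 of 0.90. The authors' deposited tables for mutants against WT called no mitochondrial locus among 81, 54, 33 and 46 with an adjusted p, for ahl10-1 control, ahl10-1 stress, rrp6l1-2 control and rrp6l1-2 stress. Over all genes with an adjusted p, 18 of 25824, 85 of 23755, 893 of 21437 and 282 of 22877 were called, in the same order.

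The nuclear copy set a limit on these counts, and so did sequence repeated within the mitochondrial genome. Reads that map to several places show where, but do not separate these sources. ATMG00170 and ATMG00620, for example, had the same count in every library. Of the cox2 windows 20.3% recurred within the mitochondrial genome, against 7.32% with an exact nuclear match. Over all mitochondrial loci 11% of reads were multi-mapping, but this low figure came from the leading pair: without ATMG00020 and ATMG01390 it was 47.0%. Of the 59 loci with at least 100 reads in total, 13 had a multi-mapping share under 0.5%, 30 had a share over 50% and 9 over 99%. The 9 highest were ATMG00170, ATMG00360, ATMG00590, ATMG00620 and ATMG01000 at 100%, followed by nad3 at 99.8%, ATMG01010 at 99.8%, atp8 at 99.7% and rps12 at 99.6%. Among 15 named genes with at least 100 reads, the multi-mapping share followed the share of the gene that has an exact nuclear match, with a Spearman rho of 0.86 across genes, given as description. The 6 genes with more than 50% of their windows matched had multi-mapping shares of 29.1 to 99.6%. Of the 6 genes with no matched window, nad9, ccmB, atp4, cox1 and rrn18 had none, while rrn5 (118 bp) had 57.3%. A sequence search found no nuclear match for rrn5. In each library its count and that of ATMG01370 had fractions that completed each other, as 89.7265 and 175.274 in stressed WT replicate 1. The reads of rrn5 were thus shared, at least in part, with another mitochondrial locus.

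**Figure D3:**
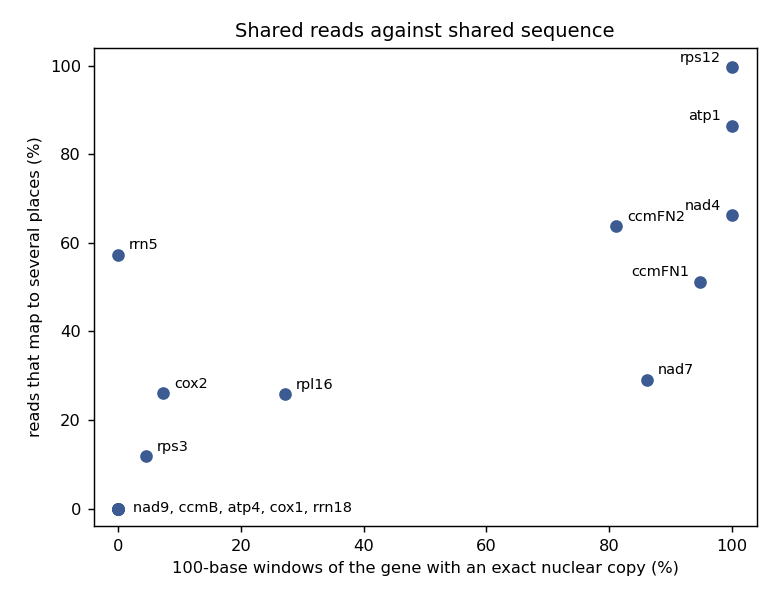
Multi-mapping share of each gene's reads over 18 libraries (y axis, %) against the share of its 100-base windows with an exact nuclear match in TAIR10.1 (x axis, %), for the 15 named genes with at least 100 reads. Genes without a match sit at the bottom left except rrn5, and rps12 sits at the top right with 99.6% multi-mapping reads.

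The reference notes a nuclear copy for 53 of the 146 loci, and between them the pairs held 42118 reads on the mitochondrial locus and 61221 on the copy. In 37 pairs with at least 100 reads, the copy held more in 22 and the mitochondrial locus more in 14, and in 7 of them the mitochondrial locus had no read in any library. ATMG00210 (rpl5), ATMG00290 (rps4) and ATMG01270 (rps7), all ribosomal protein genes, had 0 reads, and their copies AT2G07725, AT2G07734 and AT2G07696 had 2439, 978 and 773. ATMG00220 (cob, apocytochrome b) had 3.77 reads in all, against 4167 on AT2G07727, and ATMG01190 (atp1, the alpha subunit of the ATP synthase) had 1620, against 17674 on AT2G07698 at chr2:3361463-3364127 (TAIR10.1). A locus listed at 0 here is therefore not shown to be silent, since its reads may be counted at the copy.

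The 144 annotated loci with identifiers from AT2G07660 to AT2G07830 held 191224 reads. Of these loci, 127 lay inside the matched block and held 113588 reads, of which 53.6% were multi-mapping. The others lay outside it. Of 62 tested loci inside the block, 3 rose and 3 fell in ahl10-1, 10 rose and 0 fell in rrp6l1-2, and 5 rose and 3 fell in WT (edgeR). Their median log2 differences were 0.01, 0.20 and 0.10. Over the whole identifier range 64 of the 144 were tested. There 3 rose and 4 fell in ahl10-1, 10 rose and 1 fell in rrp6l1-2, and 5 rose and 4 fell in WT (edgeR), with median log2 differences of 0.01, 0.19 and 0.08. Of all genes, 30.1, 29.5 and 26.1% passed.

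The split between the members of a pair was not stable from library to library. rps12 held between 0 and 100% of the reads of its pair: the nuclear copy was at 0 in 8 libraries, among them all 6 of replicate 1, the mitochondrial locus was at 0 in 2 and both had the same count, within 1%, in 4. In stressed WT the mitochondrial locus had 635, 0 and 86.0 reads while AT2G07675 had 0, 514 and 344. The pair as a whole had 241 to 635 reads per library, and its coefficient of variation over libraries was 31.8%, against 66.4% for the mitochondrial locus alone. nad3 gave 39.5% for the pair with AT2G07751, against 75.9% alone, and atp8 gave 25.2% for the pair with AT2G07707, against 56.0% alone. These 3 loci are among those with the widest errors in the plot of log2 fold changes. Counts of 18 sets of loci were identical in every library.

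**Figure D4:**
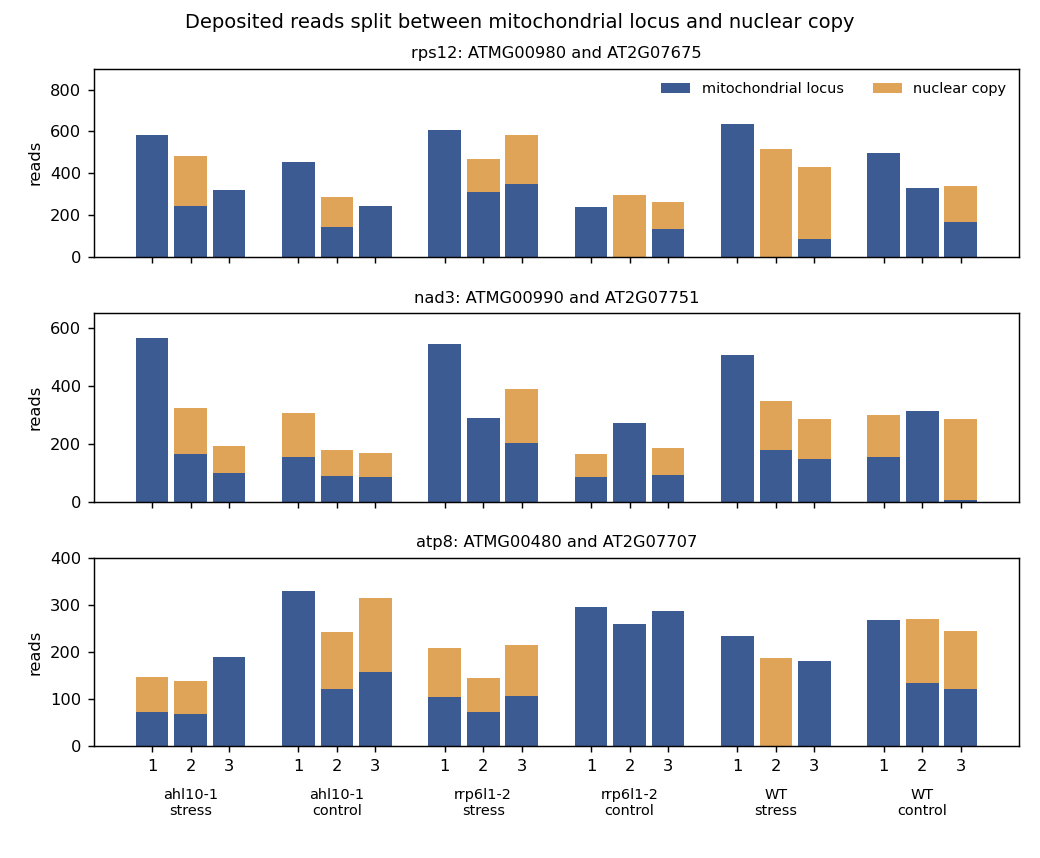
Deposited reads (y axis, linear) of rps12, nad3 and atp8 in each library, numbered by replicate within group, split between mitochondrial locus and nuclear copy. The full bars vary far less than the split: the rps12 locus has 635 reads in stressed WT replicate 1 and 0 in replicate 2, where its copy has 514.

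Counting each mitochondrial locus together with its annotated copy, an alternative added after the data were seen, added calls for genes whose own counts were low or unevenly split. The sums cannot tell mitochondrial from nuclear RNA. With 73 loci or sums tested, 12 passed in ahl10-1 (8 higher, 4 lower), 18 in rrp6l1-2 (16 higher, 2 lower) and 10 in WT (8 higher, 2 lower) by edgeR, where 30.1, 29.6 and 26.1% of all genes passed. In all 3 genotypes 8 passed and 21 passed in at least 1. The sums of atp1, cob and cox3 with their copies were added to the calls that rose in every genotype.

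atp1 with its copy had 16.2, 21.0 and 26.9 CPM in stressed ahl10-1, against 13.2, 9.92 and 10.9 CPM in control. The sum was 22.3, 21.5 and 31.9 CPM in stressed rrp6l1-2, against 7.27, 8.78 and 12.3 CPM in control, and 22.3, 22.4 and 26.2 CPM in stressed WT, against 11.4, 9.84 and 11.9 CPM in control. All 9 stressed libraries lay above all 9 controls, with log2 changes of 0.91 ± 0.21, 1.42 ± 0.21 and 1.09 ± 0.21 (adjusted p = 0.00419, 1.80e-04 and 0.00132, edgeR). By its own reads ATMG01190 had differed by 0.15 ± 0.48, 0.89 ± 0.49 and 0.47 ± 0.46 and did not pass. Reads that mapped to AT2G07698 alone moved the same way: 4.09 ± 0.83 CPM in stressed and 1.91 ± 0.03 CPM in control ahl10-1, 4.67 ± 1.28 CPM in stressed and 1.74 ± 0.70 CPM in control rrp6l1-2, and 4.31 ± 0.56 CPM in stressed and 1.82 ± 0.52 CPM in control WT (SD, n = 3 each, no test). Reads that mapped to ATMG01190 alone were far fewer, with 0.185 ± 0.083 CPM in stressed and 0.164 ± 0.079 CPM in control ahl10-1. Stress and control values were 0.173 ± 0.123 and 0.101 ± 0.051 CPM in rrp6l1-2, and 0.307 ± 0.091 and 0.216 ± 0.033 CPM in WT.

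cob with its copy had 4.04 to 7.13 CPM in the 9 stressed libraries, against 1.41 to 3.69 CPM in the 9 controls, again with no overlap. It rose by 1.01 ± 0.29 in ahl10-1, 1.26 ± 0.29 in rrp6l1-2 and 0.88 ± 0.29 in WT (adjusted p = 0.0155, 0.00452 and 0.0337, edgeR). cox3 with AT2G07687 rose by 0.82 ± 0.27, 1.17 ± 0.27 and 0.87 ± 0.27 (adjusted p = 0.032, 0.00472 and 0.0258, edgeR). With copies included, complex III gave 1 of 1 in each genotype, and complex IV gave 2 of 3 in ahl10-1, 3 of 3 in rrp6l1-2 and 2 of 3 in WT. Of all genes, 30.1, 29.6 and 26.1% passed in the same order. The complex III locus was cob, with 3.77 reads in all on the mitochondrial locus and 4167 on AT2G07727, so its call rests on reads counted at the copy.

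Ribosomal protein genes passed in rrp6l1-2 with their copies: 3 of 6 rose, namely rps12 by 0.94 ± 0.19, rpl5 by 1.03 ± 0.25 and rps4 by 1.13 ± 0.27 (adjusted p = 0.00149, 0.00676 and 0.00529, edgeR), while none of 6 passed in ahl10-1 or WT. Of all genes 29.6% passed in rrp6l1-2, and rpl5 and rps4 had 0 reads on the mitochondrial locus. In ahl10-1 and WT rps12 differed by 0.46 ± 0.19 and 0.38 ± 0.18, and the interaction terms gave no call for any sum. nad3 with its copy rose in rrp6l1-2 by 0.87 ± 0.29 and nad2B by 0.91 ± 0.27 (adjusted p = 0.0318 and 0.0181, edgeR). Cytochrome c maturation genes gave 0 of 5 in each genotype also with copies.

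Downward calls were fewer. atp8 with its copy had 2.12, 2.18 and 3.28 CPM in stressed ahl10-1, against 4.87, 3.85 and 5.78 CPM in control. It had 3.21, 2.40 and 3.51 CPM in stressed rrp6l1-2, against 5.22, 4.13 and 5.27 CPM in control, and 3.18, 2.91 and 2.99 CPM in stressed WT, against 4.06, 4.46 and 3.84 CPM in control. The stressed libraries lay below every control, and the sum fell by 0.94 on the log2 scale in ahl10-1 and by 0.68 in rrp6l1-2 (adjusted p = 0.00163 and 0.0141, edgeR), with -0.44 ± 0.19 in WT (adjusted p = 0.0979, edgeR). Within the ATP synthase, then, atp4 and the atp1 sum rose, the atp8 sum fell in both mutants and atp9 and atp6-1 did not pass. The unnamed ATMG01180 with AT2G07667 fell by 1.22 in ahl10-1 and by 0.89 in WT (adjusted p = 0.00182 and 0.0127, edgeR), with -0.35 ± 0.25 in rrp6l1-2.

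**Figure D5:**
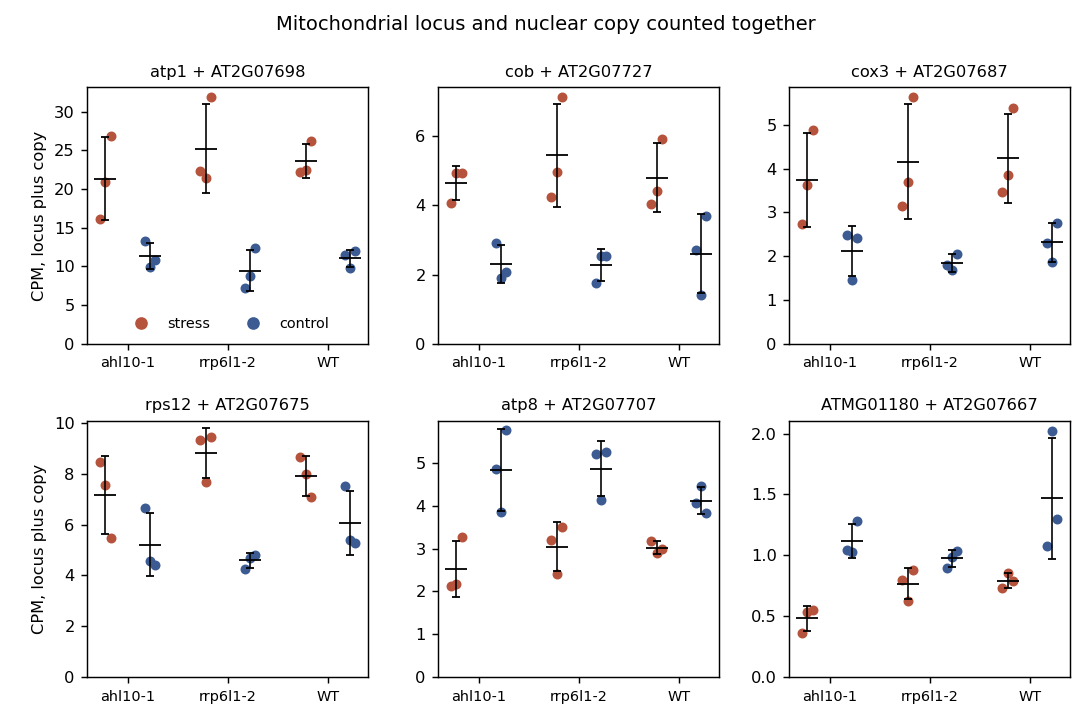
CPM (y axis, linear, TMM-scaled) of 6 mitochondrial loci counted together with their nuclear copies, with stressed libraries left of controls in each genotype. Points are libraries, and lines with bars are the mean ± SD of 3. atp1, cob and cox3 lie higher in all stressed libraries of a genotype than in its controls, and atp8 and ATMG01180 lie lower.

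Nuclear genes for the same complexes were set beside these loci. A list of 52 nuclear subunit genes of complexes I to IV, cytochrome c and the ATP synthase was written from general knowledge. Over all genes 15.7% in ahl10-1, 14.9% in rrp6l1-2 and 12.6% in WT were called higher, and 30.1, 29.5 and 26.1% in either direction. Of the 52 genes, 10 rose in ahl10-1, 4 in rrp6l1-2 and 7 in WT and none fell (edgeR). Their median log2 difference was 0.15, 0.12 and 0.15, and the called members were in complex I (5, 2 and 4 of 20), complex II (2, 2 and 2 of 5), complex III with cytochrome c (1, 0 and 1 of 11) and the ATP synthase (2, 0 and 0 of 9), with none of 7 in complex IV. EMB1467, the large iron-sulfur subunit of complex I, rose by 0.38 ± 0.09, 0.24 ± 0.09 and 0.30 ± 0.09, and SDH2-1, the iron-sulfur subunit of complex II, by 0.33 ± 0.08, 0.28 ± 0.08 and 0.36 ± 0.08. AT5G25450 of complex III rose by 0.51 ± 0.13 in ahl10-1 and 0.52 ± 0.13 in WT. These changes were smaller than those of cox2 or atp4, a contrast of sizes that was not tested. Both loci were named because they were called. The median over all 59 tested mitochondrial loci was 0.03 in ahl10-1, 0.53 in rrp6l1-2 and 0.19 in WT.

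The alternative respiratory enzymes, which bypass complexes I, III and IV without pumping protons, gave 4 higher and 1 lower of 12 tested in ahl10-1, 4 higher and 1 lower in rrp6l1-2, and 5 higher and none lower in WT, where 30.1, 29.5 and 26.1% of all genes passed in either direction. NDB4, an external NAD(P)H dehydrogenase, rose by 3.18 ± 0.45, 3.53 ± 0.46 and 4.47 ± 0.48. NDA2, an internal one, rose by 0.58 ± 0.08, 0.60 ± 0.08 and 0.50 ± 0.08, NDB2 by 0.97 ± 0.16, 0.71 ± 0.16 and 0.83 ± 0.16, and the alternative oxidase AOX1A by 0.67 ± 0.10, 0.33 ± 0.10 and 0.51 ± 0.10 (all adjusted p under the threshold, edgeR). NDC1 fell in both mutants, by 0.25 and 0.33 on the log2 scale, with -0.21 ± 0.08 in WT.

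Of 26 nuclear genes for mitochondrial transcription, RNA processing and decay, 1 rose and 3 fell in ahl10-1, 3 rose and 2 fell in rrp6l1-2, and 1 rose and 1 fell in WT, beside 30.1, 29.5 and 26.1% of all genes that passed. RPF3, a pentatricopeptide repeat protein for processing of mitochondrial transcript ends, fell by 0.48, 0.57 and 0.48 on the log2 scale, and PMH2, a DEAD-box RNA helicase that aids intron splicing, rose by 0.23 ± 0.07, 0.19 ± 0.07 and 0.24 ± 0.07. MGP3, the mitochondrial RNA polymerase, fell in ahl10-1 by 0.22, with -0.15 ± 0.07 in both other genotypes, and the RNA helicase gene ATSUV3 fell there by 0.25. In rrp6l1-2 OTP43, a splicing factor, fell by 0.41, while SLO1, an editing factor, rose by 0.31 ± 0.11 and PMH1, related to PMH2, by 0.26 ± 0.09. None of 4 genes for maintenance of the mitochondrial genome passed by edgeR in any genotype. Of 133 chloroplast loci 106 were tested, with 0 higher and 11 lower in ahl10-1, 1 higher and 4 lower in rrp6l1-2 and 0 higher and 2 lower in WT, against 30.1, 29.5 and 26.1% of all genes called, and median log2 differences of -0.71, -0.28 and -0.17; the difference between the organelles was not tested.

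The nuclear genes whose level followed the summed mitochondrial reads most closely over the 18 libraries, by Spearman rho, were AT5G11620 (0.91), PUX3 (0.91), SPT16 (0.91), RAN3 (0.90) and AT1G31780 (0.89). These are the highest of all genes tested and are given as description.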

How the data were processed

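Per the labels, poly(A) RNA from whole seedlings was made into stranded libraries. Per the submitters' processing notes, TAIR10, CASAVA, bcl2fastq 1.8.4, Bowtie2 and DESeq2 were used; no source used here states the aligner settings, how multi-mapping reads were shared out or whether strand was used, so overlapping and antisense loci cannot be told apart. The authors deposited, for each library, estimated counts (reads per locus, not whole for 3.92 to 4.56% of loci), RPKM values, the locus length, and the multi-mapping fraction. The authors' deposited comparison tables give log2 fold changes, a test score and p-values. The sequences come from RefSeq TAIR10.1, whose mitochondrial sequence may differ from that of the files, which carry no coordinates.

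Counts were rounded and tested with edgeR 4.0.16 (R 4.3.3; TMM, filterByExpr, robust quasi-likelihood, one fit of all 6 groups with 12 residual degrees of freedom); 22795 of 33602 loci were tested. Tested on simulated data for WT stress against WT control on 22550 genes, the fit called 89 of 100 genes changed 2-fold and 99 of 100 changed 4-fold. Alternatives used DESeq2 1.42.0 and limma 3.58.1 on log2(RPKM + 0.5), log2(RPKM + 0.1) and others. Same-numbered replicates deviated together over 16487 genes in ahl10-1 (correlations 0.36, 0.25 and 0.39) and rrp6l1-2 (0.50, 0.22 and 0.18) between stress and control and in rrp6l1-2 control against WT control (0.51, 0.40 and 0.21), not in the other comparisons; the labels do not say what a number shares.

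The members, the gene lists (from general knowledge) and the rules for naming loci (highest RPKM, most reads, highest multi-mapping share, called loci up to 8 in each direction, called list members up to 3 in each direction) were chosen with earlier results of these data known. Permutation p-values planned for the summed share are not given, since it is a sum over members so chosen.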

Additional observations from a re-analysis of the deposited data

How the results depend on the processing

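The number of loci called in stress against control depended on the setting. Shares of all genes called are given above for the main fit and the sums with copies only. The other counts here therefore cannot be set against all genes. With the replicate number as a block 10 passed in ahl10-1 and 10 in WT, against 6 and 5 without it, and the block changed no other call count by more than 1.5 times and no share difference. On unique reads alone 2 passed in WT. limma on log2(RPKM + 0.5) gave 16 in rrp6l1-2 and 10 in WT, and on log2(RPKM + 0.1) 16 and 9. Scaling to mitochondrial reads, a fit of mitochondrial loci alone, gave 2 in ahl10-1 and 5 in rrp6l1-2, all lower. In rrp6l1-2 the median over the mitochondrial loci in that fit was -0.41. There 3 calls took the other sign, ATMG00580 at -0.010, ATMG00590 at -0.25 and ATMG01360 at -0.19. Without the leading 2 loci in that scale 3 passed in rrp6l1-2. Sums with nuclear copies gave 12, 18 and 10 (ahl10-1, rrp6l1-2, WT), and without all replicate 3 libraries 3 passed in ahl10-1. Leaving out 1 library at a time gave 4 to 6, 5 to 12 and 2 to 6. Mutants against WT and interactions gave 0 under every setting run. The log2 share difference fell to 0.26 in WT and 0.35 over the 3 genotypes without the leading 2 loci; with 1 library left out, rrp6l1-2 stress against WT stress ran from -0.41 to 0.055 (without WT stress replicate 3) and ahl10-1 control against WT control from -0.31 to 0.18 (without ahl10-1 control replicate 2). Where no value above shows the cause, the cause was not tested. Depth limits most loci, with 94 of 146 at a median below 10 reads.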
